A study of Mus musculus with 6 samples.

Results

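The genes described here are 8 major urinary protein (Mup) genes, taken by symbol from the deposited count table: Mup1, Mup2, Mup3, Mup7, Mup10, Mup17, Mup20 and Mup21, out of 49315 genes in the table and beside 40 other genes with a Mup symbol. Major urinary proteins are lipocalins, small barrel-shaped carriers of hydrophobic molecules, which mouse hepatocytes secrete into the blood and which pass into the urine, where they bind and slowly release volatile pheromones. The adult male liver makes far more of them than the female liver, driven by the pulses of growth hormone that act through the receptor Ghr, the kinase Jak2 and the transcription factor Stat5b. Mup20 encodes darcin, the male urinary protein that females recognise, and circulating Mup1 has been linked to glucose and lipid metabolism in mice.

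Bulk RNA was sequenced from sorted mouse hepatocytes in 6 libraries, 3 of the miR-206 group and 3 of the control group. All are labelled as wild-type C57BL/6J male liver, aged 8 weeks. In the miR-206 group, hepatocytes carried a transposon in which the Ttr promoter, active in hepatocytes, drives miR-206 and GFP. It was delivered by hydrodynamic injection of 20 μg of that plasmid together with 0.8 μg of a second, which supplied Sleeping Beauty transposase, and GFP-positive cells were sorted 4 weeks later. For the control group the descriptions differ: the sample labels give an empty vector, while the design text describes the GFP-negative hepatocytes of the same 3 injected mice. The labels do not tie a replicate number to a mouse, so p-values measure the spread between these libraries. In bulk RNA, fewer cells of a type and less RNA per cell cannot be told apart.

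Total counts were 4157947 to 5724329 in the miR-206 libraries and 8966590 to 15244017 in the controls. Mitochondrially encoded genes took 11.2%, 63.8% and 48.7% of counts in miR-206 libraries 1, 2 and 3, against 36.0%, 9.16% and 10.4% in controls 1, 2 and 3. Olfactory and vomeronasal receptor genes, used as a measure of background, had 3.73 to 5.50 counts per exonic kb in the miR-206 libraries and 1.27 to 3.08 in the controls. Mir206, the gene of the precursor, was at 0 counts in all 6 libraries, so the table does not show the overexpression. The summed level of 15 hepatocyte identity genes was 13072 to 35745 CPM (counts scaled to library size with TMM factors) in the miR-206 libraries and 59039 to 152420 CPM in the controls. Over 24382 genes tested, 55.4% were called in either direction, 25.8% as rises.

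The sequence of the overexpressed miRNA is shown first, since matches to part of it were searched for, in 3′ UTRs alone. Its seed, bases 2 to 8, is in capitals, and the sequence is RefSeq's (GRCm38.p6, chr1:20679055-20679076, plus strand).
miR-206-3p: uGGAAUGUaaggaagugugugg
A stretch of a 3′ UTR that pairs with the whole seed reads ACATTCC, and no member's longest annotated 3′ UTR held it. It was held by 10.6% of 21008 genes with a 3′ UTR. Among the 7145 genes whose 3′ UTR is 20 to 636 bases long, the wide range of the members, 2.52% held it. The shorter match CATTCCA, which pairs with bases 2 to 7 and has an A opposite base 1, occurred in Mup2, Mup7, Mup10 and Mup17, at position 104 of a 273-base 3′ UTR in each. It occurred in 12.4% of all genes with a 3′ UTR and in 2.66% of those in that range, which includes 3′ UTRs far shorter than 273 bases. The surrounding bases were identical in these 4 genes, with the match in capitals.
Mup2, Mup7, Mup10 and Mup17 site: tctgtgatctgCATTCCAtcctgtctcac
The longest annotated 3′ UTRs of Mup1, Mup3, Mup20 and Mup21 held neither match. That of Mup1 was 636 bases long and that of Mup21 only 20. Shorter annotated 3′ UTRs of the same genes were not searched. Of the 2 genes with the lowest fold changes below, Mup17 held the shorter match and Mup20 did not. A match in a UTR is a description of letters, not evidence of pairing.

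All 8 genes lie on chromosome 4 of GRCm38, on the minus strand, in an array of close copies. In the order of the array these were Mup7 (60066469 to 60070475), Mup2 (60135932 to 60154289), Mup1 (60498012 to 60501960), Mup10 (60578260 to 60582199), Mup17 (61591929 to 61595871), Mup20 (62050234 to 62054158), Mup3 (62083476 to 62087342) and Mup21 (62147932 to 62150863). The first 5 of these were near copies of each other, with coding sequences 98.7% to 99.4% identical. Mup20 was 90.1% to 91.0% identical to them, and Mup3 83.1% to 83.9%. Mup3 and Mup21, neighbours at the far end of the array, shared 94.9% of their coding sequence. 

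Because copies this close can exchange reads, the share of each gene's 100-base transcript stretches that occurs in no other annotated gene was computed. It was 97.8% for Mup3, 95.5% for Mup21, 61.2% for Mup20, 44.3% for Mup1, 40.6% for Mup17, 26.6% for Mup10, 24.5% for Mup2 and 23.9% for Mup7. The stretches of Mup20 that were not unique, 38.8%, all occurred in the pseudogene Mup-ps19, and none was shared with another of the 8 genes. Counts of Mup3, Mup21 and, Mup-ps19 aside, Mup20 are therefore the ones that sequence keeps apart, and counts of Mup1, Mup2, Mup7, Mup10 and Mup17 are uncertain as values of single genes.

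**Figure D1:**
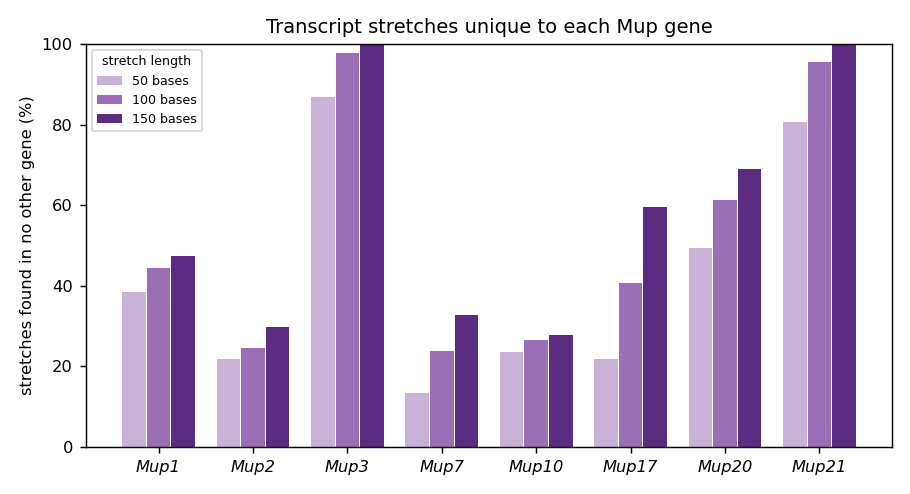
Percent of all 50-, 100- and 150-base stretches of each gene's annotated transcripts that occur in no other gene (GENCODE M21). Mup3 and Mup21 reach 97.8% and 95.5% at 100 bases, whereas Mup7, Mup2 and Mup10 are at 23.9%, 24.5% and 26.6% at that length.

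Promoter windows from 250 bases before to 50 after the start site were taken from RefSeq for Mup2, Mup3, Mup7, Mup10, Mup17 and Mup21. Those of Mup3, Mup21 and Mup17 (GRCm38.p6, minus strand, printed 5′ to 3′ in the sense of the gene) are shown because the first of these genes kept pace with Alb, the albumin gene, in the values below and the others did not. Capitals mark ATCAAT, the core letters of the Onecut factor motif on the other strand (ATTGAT).
Mup3, chr4:62087268-62087567: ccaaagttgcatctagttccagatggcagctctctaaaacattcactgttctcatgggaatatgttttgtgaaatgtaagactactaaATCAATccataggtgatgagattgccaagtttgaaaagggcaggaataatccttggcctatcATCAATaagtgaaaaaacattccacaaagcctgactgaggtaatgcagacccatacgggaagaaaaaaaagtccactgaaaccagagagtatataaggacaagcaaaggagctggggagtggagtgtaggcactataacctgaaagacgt
Mup21, chr4:62150792-62151091: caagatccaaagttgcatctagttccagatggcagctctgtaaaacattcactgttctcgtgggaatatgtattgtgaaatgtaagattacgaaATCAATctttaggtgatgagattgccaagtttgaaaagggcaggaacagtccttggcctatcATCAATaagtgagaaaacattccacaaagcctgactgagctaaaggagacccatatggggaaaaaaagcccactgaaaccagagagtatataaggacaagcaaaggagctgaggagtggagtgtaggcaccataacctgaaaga
Mup17, chr4:61595783-61596082: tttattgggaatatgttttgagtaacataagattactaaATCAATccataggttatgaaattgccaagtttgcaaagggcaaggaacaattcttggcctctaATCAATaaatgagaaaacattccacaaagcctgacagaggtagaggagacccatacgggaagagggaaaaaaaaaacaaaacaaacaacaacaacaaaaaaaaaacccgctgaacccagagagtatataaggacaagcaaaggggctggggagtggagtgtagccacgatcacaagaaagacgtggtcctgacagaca
In each of the 6 windows ATCAAT stood at 2 places, and 7.54% of 32851 promoter windows held it or its reverse at least once. The Mup3 and Mup21 windows were 92.9% identical over 297 aligned columns, and those of Mup17 and Mup3 77.6%. TTCNNNGAA, the letters of a STAT5 site, was searched on both strands and lay in none of the 6 windows, and 8.30% of all windows held it. TGTTCT, the core letters bound by the glucocorticoid receptor, was searched on both strands and lay in the Mup3 and Mup21 windows, as it did in 19.0% of all windows. These letters do not tell Mup3 and Mup21 apart.

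On counts as deposited, with TMM scaling, all 8 Mup genes were lower in the miR-206 libraries and passed the test (edgeR's quasi-likelihood test, Benjamini-Hochberg adjusted over all genes, threshold 0.05), where 29.6% of all genes tested fell. Their median log2 fold change, miR-206 over control, was -2.26, beside a median of 0.45 over all genes. The log2 fold changes ran from -1.27 for Mup2 to -4.42 for Mup20. In 7 of the 8, every miR-206 library was below every control, which was so for 30.3% of all genes, and Mup10 was the exception. How much of this remained depended on what the libraries were scaled to, and Mup17 and Mup20 passed in each of 17 alternative fits.

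Mup3 (ENSMUSG00000066154) was the most abundant member in every library. It had 6410.5, 2031.4 and 4198.4 CPM in miR-206 libraries 1, 2 and 3, against 11919.4, 25622.9 and 22413.7 CPM in controls 1, 2 and 3. The groups did not overlap, although the lowest control was less than 2 times the highest miR-206 library. Mup3 fell by 2.25 on the log2 scale (SE 0.68, edgeR adjusted p = 0.0187). The call was lost without miR-206 library 2 or 3 or control 2 or 3 (edgeR adjusted p of 0.0609 to 0.0811) and with the replicate number as a block (edgeR adjusted p = 0.0768).

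Mup20 (ENSMUSG00000078672), the darcin gene, was the second most abundant member in the controls. Its values were 816.9, 340.9 and 588.1 CPM in miR-206 libraries 1, 2 and 3, against 7687.0, 16118.5 and 13579.7 CPM in controls 1, 2 and 3. Every control stood far above every miR-206 library. The log2 fold change was -4.42 (SE 0.70, edgeR adjusted p = 0.000728), the lowest of the 8, and it ran from -4.28 to -4.89 when each library was left out in turn.

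Mup7 (ENSMUSG00000073842) was the third by level in the controls, with few stretches of its own. It had 611.0, 281.4 and 420.2 CPM in miR-206 libraries 1, 2 and 3, against 2275.4, 1339.7 and 1485.1 CPM in controls 1, 2 and 3. Control 1 was the highest library for Mup7, whereas it was the lowest control for Mup3 and Mup20. Mup7 fell by 1.96 (SE 0.54, edgeR adjusted p = 0.0124), and the call was lost without miR-206 library 2 or 3 (edgeR adjusted p of 0.0524 and 0.0535).

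Mup21 (ENSMUSG00000066153), the close relative of Mup3, had 68.3, 24.0 and 47.8 CPM in miR-206 libraries 1, 2 and 3, against 358.7, 442.3 and 415.8 CPM in controls 1, 2 and 3. Its controls lay close together, at 406 ± 42.7 CPM (SD, n = 3), and above every miR-206 library. It fell by 3.12 on the log2 scale (SE 0.53, edgeR adjusted p = 0.00103).

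Mup17 (ENSMUSG00000096688) had 16.95, 8.37 and 13.4 CPM in miR-206 libraries 1, 2 and 3, against 149.7, 169.7 and 169.5 CPM in controls 1, 2 and 3. The controls differed little from each other and were all far above the miR-206 libraries. Mup17 fell by 3.65 (SE 0.44, edgeR adjusted p = 0.000317), the smallest p of the 8. Of the Mup genes that are no members, Mup14, Mup12, Mup11, Mup16 and Mup15 had log2 fold changes of -3.19, -3.06, -3.0, -2.96 and -2.80. Mup13, which held more of the 100-base stretches of Mup17 than any other Mup gene (33.45%), was at -1.08. Which copy gave the shared reads was not tested.

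Mup10 (ENSMUSG00000078680) was the member whose groups overlapped. Its values were 44.1, 10.4 and 18.9 CPM in miR-206 libraries 1, 2 and 3, against 43.3, 67.8 and 89.4 CPM in controls 1, 2 and 3. Its miR-206 library 1 was at the level of control 1, and the other libraries of the 2 groups stood apart. The log2 fold change was -1.45 (SE 0.53, edgeR adjusted p = 0.0392), and the call was lost without miR-206 library 2 or 3 or control 2 or 3 (edgeR adjusted p of 0.0706 to 0.125).

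Mup1 and Mup2 were near the limit of detection after miR-206. Mup1 (ENSMUSG00000078683) had 25, 12 and 28 counts in miR-206 libraries 1, 2 and 3, against 141, 144 and 91 counts in controls 1, 2 and 3. Mup2 (ENSMUSG00000078688) had 16, 22 and 17 counts in miR-206 libraries 1, 2 and 3, against 35, 83 and 57 counts in controls 1, 2 and 3. In the miR-206 libraries both were at 2.80 times the receptor background for their exonic length, against 40.9 times for Mup1 and 22.6 times for Mup2 in the controls. Mup1 fell by 2.26 (SE 0.38, edgeR adjusted p = 0.00102), and passed whichever library was left out. Mup2 fell by 1.27 (SE 0.46, edgeR adjusted p = 0.0372), and the call was lost without miR-206 library 1 or 3 or control 2 or 3 (edgeR adjusted p of 0.0625 to 0.114). With the background subtracted Mup1 fell by 2.04 and Mup2, at -0.78, did not pass (edgeR adjusted p = 0.321).

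**Figure D2:**
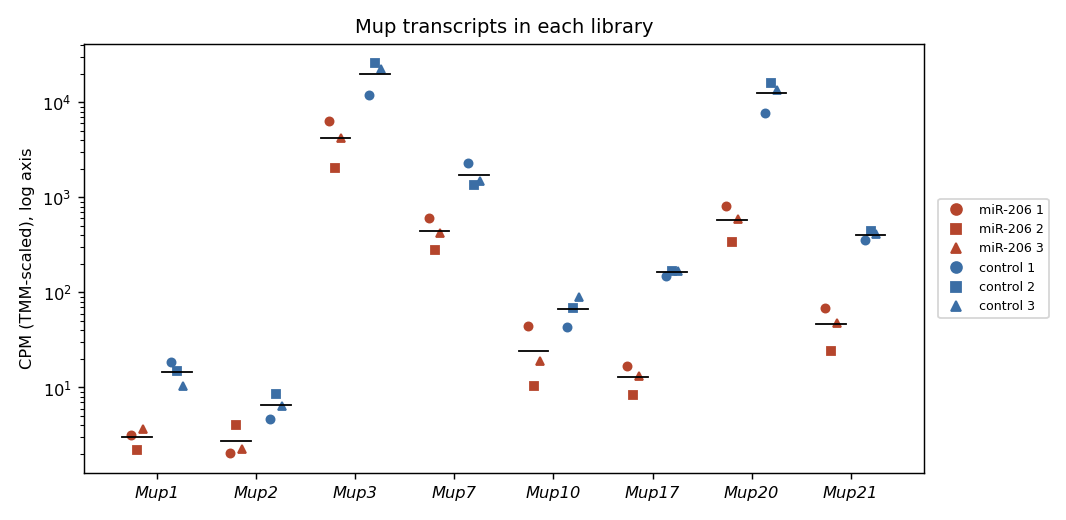
TMM-scaled CPM of each Mup gene on a log axis, with a point for each of 3 miR-206 (red) and 3 control (blue) libraries and a bar at each group's mean. Mup10 is the gene whose groups overlap, with 44.1 CPM in miR-206 library 1 and 43.3 CPM in control 1.

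Levels were also set per kb of exon, which allows for the length of genes but not for reads shared between copies. The order in the miR-206 libraries was Mup3 at 3945 ± 2050.2, Mup20 at 627 ± 257, Mup7 at 424 ± 160.2, Mup21 at 68.98 ± 32.7, Mup10 at 17.6 ± 12.6, Mup17 at 13.9 ± 4.65, Mup2 at 2.06 ± 0.815 and Mup1 at 1.90 ± 0.476 CPM per kb (SD, n = 3). In the controls the order was Mup3 at 18713 ± 6711, Mup20 at 13429 ± 4661, Mup7 at 1646 ± 487, Mup21 at 599 ± 63.1, Mup17 at 176 ± 12.4, Mup10 at 48.0 ± 16.6, Mup1 at 9.23 ± 2.63 and Mup2 at 4.91 ± 1.49 CPM per kb (SD, n = 3). Within the miR-206 group, Mup10 and Mup17 lay within their spread of each other, as did Mup2 and Mup1. How shared reads were counted is unknown, so the places of Mup1, Mup2, Mup7, Mup10 and Mup17 in both orders are uncertain.

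The make-up of the family differed between the groups, and a share within the family does not depend on how libraries are scaled. Mup3 made up 80.4%, 75.2% and 79.3% of the summed counts of the 8 genes in miR-206 libraries 1, 2 and 3, against 53.1%, 58.5% and 58.7% in controls 1, 2 and 3. Mup20 made up 10.2%, 12.6% and 11.1% in miR-206 libraries 1, 2 and 3, against 34.2%, 36.8% and 35.6% in controls 1, 2 and 3. The groups stood apart in both, with Mup3 at 78.3 ± 2.77% against 56.8 ± 3.20% and Mup20 at 11.3 ± 1.20% against 35.5 ± 1.29% for miR-206 and control libraries (SD, n = 3). An exact two-sided permutation test gave p = 0.1 for each, the smallest that 3 against 3 libraries allow, and 0.133 after Benjamini-Hochberg adjustment over the 8 shares.

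**Figure D3:**
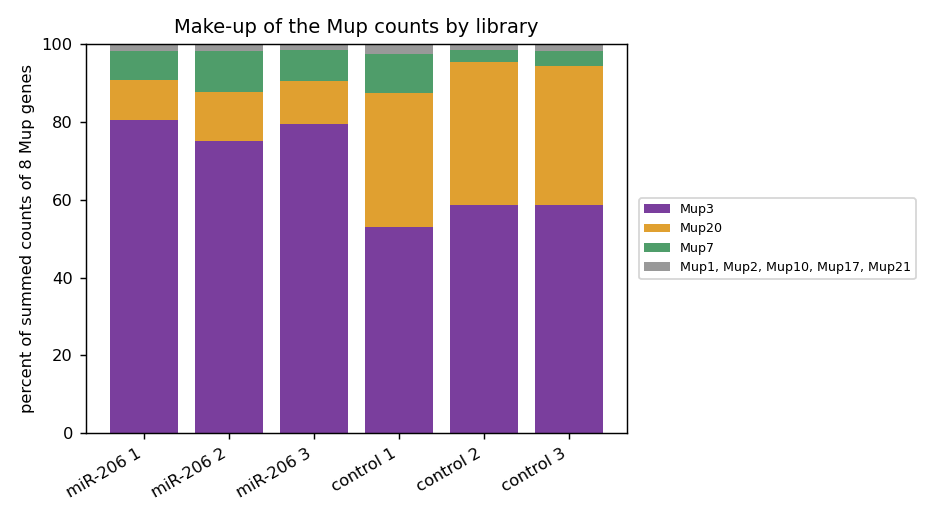
Percent of the summed counts of the 8 Mup genes taken by Mup3, Mup20, Mup7 and the other 5 together, a stacked bar for each library. Mup20 takes 10.2% to 12.6% of the bar in the miR-206 libraries and 34.2% to 36.8% in the controls.

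The same difference was seen between Mup20 and Mup3 alone, which share no 100-base stretch. For every 100 counts of Mup3, Mup20 had 12.7, 16.8 and 14.0 counts in miR-206 libraries 1, 2 and 3, against 64.5, 62.9 and 60.6 counts in controls 1, 2 and 3. The mean ratio was 14.5 ± 2.06 in the miR-206 libraries and 62.7 ± 1.96 in the controls (SD, n = 3), 4.32-fold higher in the controls. Control 1, which stood apart in its mitochondrial share and in other genes, was close to the other controls here. Mup-ps19, which shares sequence with Mup20, had 257, 89 and 161 counts in miR-206 libraries 1, 2 and 3, against 1818, 3949 and 4128 counts in controls 1, 2 and 3. It fell by 4.0 on the log2 scale (SE 0.53, edgeR adjusted p = 0.00038), near the value of Mup20, and which of the 2 genes gave the shared reads was not tested.

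Of the other members, Mup17 and Mup21 had a lower share in every miR-206 library, at 0.258 ± 0.0488% against 0.499 ± 0.148% and at 0.883 ± 0.0236% against 1.23 ± 0.319% for miR-206 and control libraries (SD, n = 3). Mup10 and Mup2 had a higher share, at 0.431 ± 0.107% against 0.194 ± 0.0397% and at 0.0718 ± 0.0665% against 0.0191 ± 0.00191%. Each of these 4 gave the same exact permutation p of 0.1. For Mup2 the size rested on miR-206 library 2: the difference was 0.0528 points with it and 0.0147 points without it, and with the receptor background subtracted the exact permutation p was 0.4. For Mup17 and Mup21 it rested in part on control 1, with differences of -0.241 and -0.35 points with it and -0.158 and -0.167 points without it. Mup7, at 8.67 ± 1.51% in miR-206 libraries and 5.69 ± 3.87% in controls, overlapped between the groups (exact permutation p = 0.3), as did Mup1 (exact permutation p = 0.6).

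Set against Alb, the listed hepatocyte gene with the most counts, the members split. Alb itself was at 18459.9, 6236.5 and 11641.1 CPM in miR-206 libraries 1, 2 and 3, against 29253.2, 75676.6 and 75663.0 CPM in controls 1, 2 and 3, and it fell by 2.31 on the log2 scale (SE 0.73, edgeR adjusted p = 0.0224). Mup3 kept pace with it: for 100 counts of Alb there were 34.7, 32.6 and 36.1 counts of Mup3 in miR-206 libraries 1, 2 and 3, against 40.7, 33.9 and 29.6 in controls 1, 2 and 3. The groups overlapped, and their means, 34.5 ± 1.76 and 34.7 ± 5.61 in miR-206 and control libraries (SD, n = 3), differed by less than their spread. Against all counts of nuclear genes instead, the log2 ratio of Mup3 was -0.67, and against the summed counts of 22 plasma protein genes it was -0.73, so the match with Alb is not a match with every liver transcript.

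Mup20 did not keep pace. It had 4.43, 5.47 and 5.05 counts per 100 counts of Alb in miR-206 libraries 1, 2 and 3, against 26.3, 21.3 and 17.9 in controls 1, 2 and 3. The groups stood far apart, with means of 4.98 ± 0.524 in the miR-206 libraries and 21.8 ± 4.19 in the controls (SD, n = 3), 4.38-fold higher in the controls. Without any 1 of the 6 libraries the log2 ratio stayed between -1.98 and -2.26.

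Mup17 had 0.0918, 0.134 and 0.115 counts per 100 counts of Alb in miR-206 libraries 1, 2 and 3, against 0.512, 0.224 and 0.224 in controls 1, 2 and 3. For Mup21 these ratios were 0.370, 0.385 and 0.410 in miR-206 libraries 1, 2 and 3, against 1.23, 0.584 and 0.550 in controls 1, 2 and 3. Both were lower in every miR-206 library, but control 1 carried much of the size: the log2 ratio of Mup17 was -1.49 with it and -0.98 without it, and that of Mup21 was -1.02 with it and -0.55 without it. Mup7 depended on the same library, with a log2 ratio of -0.01 with control 1 and 1.03 without it. Its ratios were 3.31, 4.51 and 3.61 in miR-206 libraries 1, 2 and 3, against 7.78, 1.77 and 1.96 in controls 1, 2 and 3. Mup10 was higher relative to Alb in every miR-206 library, at 0.189 ± 0.0434 counts per 100 against 0.119 ± 0.0293 in the controls (SD, n = 3), and Mup1 and Mup2 overlapped between the groups.

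All 8 genes together had 43.2, 43.3 and 45.5 counts per 100 counts of Alb in miR-206 libraries 1, 2 and 3, against 76.8, 57.9 and 50.4 in controls 1, 2 and 3. The miR-206 libraries were closely alike and all below the controls. As a share of the counts of nuclear genes the 8 took 1.71%, 0.832% and 1.38% in miR-206 libraries 1, 2 and 3, against 2.96%, 3.05% and 2.67% in controls 1, 2 and 3. The widest 95% Wilson interval in each group ran from 0.819% to 0.845% for miR-206 library 2 and from 2.95% to 2.97% for control 1, and these intervals cover counting error only.

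**Figure D4:**
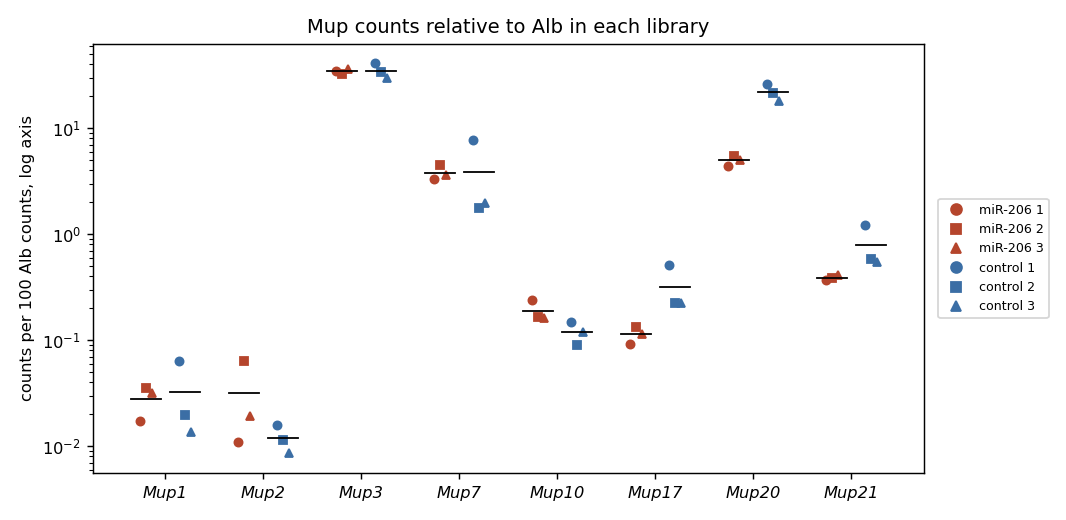
Counts of each Mup gene per 100 counts of Alb, on a log axis, with a point for each of 3 miR-206 (red) and 3 control (blue) libraries and a bar at each group's mean. Mup3 overlaps between the groups at 29.6 to 40.7, while Mup20 lies at 4.43 to 5.47 in the miR-206 libraries and 17.9 to 26.3 in the controls.

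Mup20, Mup17 and Mup21 had the lowest fold changes of the 8 under each of the 4 scalings plotted, while the number of calls depended on the scaling. With the library size replaced by the summed counts of the 15 hepatocyte identity genes, the median of all genes moved to 2.60 and 2.09% of genes fell while 60.5% rose. Alb and Apoa1 held most of that sum, with 75676.6 and 27660.9 of 152420 CPM in control 2, so this scaling is close to the ratio to Alb. The 15 identity genes themselves still had a median of -1.03 under it, and 7 of them fell. Of the 8 Mup genes 2 fell: Mup20, by 2.14 (SE 0.33, edgeR adjusted p = 0.000113), and Mup17, by 1.5 (SE 0.58, edgeR adjusted p = 0.024). None of the other 6 passed. The nearest was Mup21 at -1.02 (SE 0.49, adjusted p = 0.0701 in edgeR). Mup3 stood at -0.01 (SE 0.28), Mup7 at -0.01 (SE 0.44), Mup1 at -0.23 (SE 0.83), Mup10 at 0.68 (SE 0.58) and Mup2 at 1.32 (SE 0.91). With the receptor background subtracted and TMM scaling, 29.2% of genes fell and 4 members did, Mup20 (-3.42), Mup17 (-2.78), Mup21 (-2.19) and Mup1 (-2.04). With both together, 9.33% of genes fell, and of the members Mup20 (-2.13) and Mup17 (-1.57) did. Without control 1, 34.7% of genes fell, and all 8 members with them.

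**Figure D5:**
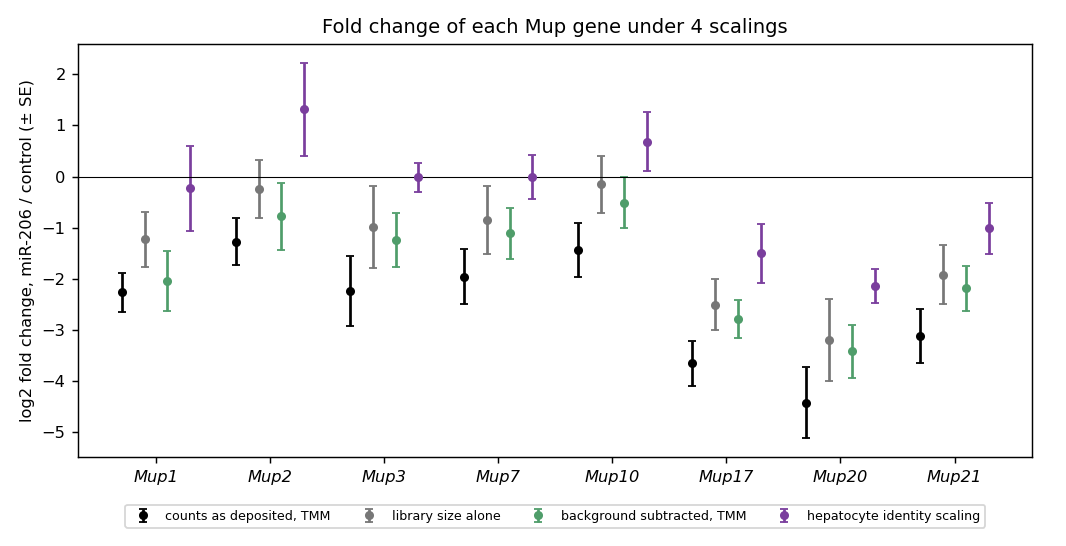
Log2 fold change of each Mup gene, miR-206 over control, under 4 scalings, with bars of 1 SE. With hepatocyte identity scaling Mup20 and Mup17 are at -2.14 and -1.5 and Mup3 and Mup7 at -0.01. Mup2 and Mup10 are the genes above 0 there, at 1.32 and 0.68.

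The other 40 genes with a Mup symbol had fewer counts than Mup7 in every library. Here and below, a value in parentheses after a gene is its log2 fold change, miR-206 over control, with TMM scaling. Of 13 that code for protein, 11 could be tested, and 8 fell, 0 rose and 3 did not pass, where 29.6% of all genes fell. Their median was -2.27, close to that of the members, with a range of -3.19 to 1.05. Mup14, Mup12, Mup11, Mup16 and Mup15, given above, fell, as did Mup18 (-2.27), Mup13 (-1.08) and Mup8 (-1.04). Mup9 (-1.21), Mup19 (-0.57) and Mup5 (1.05) did not pass, and Mup4 and Mup6 had too few counts. The gene listed as Gm21320, which GENCODE M21 names Mup22, fell by 1.62 (SE 0.48, edgeR adjusted p = 0.0168). Of its 100-base stretches 0% were unique, and 92.4% occurred in Mup10. For the 8 coding genes that fell, the unique share ran from 2.66% (Mup15) to 30.6% (Mup8), and for Mup19 it was 0%. Counts of these copies are therefore uncertain as values of single genes, and their falls are not separate from those of the members. Of 27 pseudogenes, 19 had at least 10 counts in all and 6 were tested. Among these Mup-ps19 and Mup-ps13 (-3.37) fell, Mup-ps15 (2.90) and Mup-ps18 (2.30) rose, and Mup-ps22 (1.67) and Mup-ps20 (-0.54) did not pass. The pair that rose had at most 40 counts in any library.

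Genes of the growth hormone pathway, which drives Mup genes in males, fell in part. With TMM scaling 29.6% of all genes fell and 25.8% rose, and these shares stand beside each list below as well. Of 10 genes listed, 0 rose and 5 fell, with a median of -0.92: Igf1, a secreted target of growth hormone (-3.20), Cish, a feedback inhibitor of STAT5 (-2.52), the receptor Ghr (-2.03), Stat5b (-1.82) and the repressor Bcl6 (-0.95). Igfals, a carrier partner of IGF1 (-0.89), the kinase Jak2 (-0.77), Stat5a (-0.51), the inhibitor Socs2 (-0.19) and Cux2, a factor of female liver (0.76), did not pass. Ghr had 142, 81.5 and 104 CPM in miR-206 libraries 1, 2 and 3, against 187, 593 and 559 CPM in controls 1, 2 and 3. Relative to Alb, Ghr, Igf1, Cish and Stat5b overlapped between the groups. With hepatocyte identity scaling 0 of the 10 fell and 4 rose, Cux2, Socs2, Stat5a and Igfals, where 60.5% of all genes rose. With the receptor background subtracted as well, 2 of 9 tested rose, Socs2 and Igfals, where 7107 of 18569 genes rose. In the miR-206 libraries Cish was at 0.626 times that background, Cux2 at 1.12 times and Stat5a at 1.58 times, so their counts there are little or no measure of their level.

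Of 10 genes for transcription factors known to act on Mup genes or on liver genes at large, 7 fell and 0 rose, with a median of -2.23. The liver factors Cebpa (-4.70), Hnf4a (-4.30) and Cebpb (-4.29) fell most, and the glucocorticoid receptor Nr3c1 (-2.37), Onecut1 (-2.09) and the thyroid hormone receptor Thrb (-1.19) also fell. Zhx2, a regulator of Mup genes in mouse liver (-0.96), and the thyroid hormone receptor Thra (-0.11) did not pass. Hnf4a had 10.1, 16.9 and 16.5 CPM in miR-206 libraries 1, 2 and 3, against 82.7, 390 and 387 CPM in controls 1, 2 and 3. The groups were far apart. With hepatocyte identity scaling 2 of the 10 genes fell, Hnf4a and Cebpa, and 2 rose, Thra among them. Over all genes 2.09% fell and 60.5% rose there. With the receptor background subtracted as well, 5 fell and 0 rose, with a median of -2.24, where 9.33% of all genes fell. In the miR-206 libraries Cebpa, Cebpb and Onecut1 were at 0.431 to 0.853 times the receptor background, so their counts there are no measure of their level.

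Other male-biased liver genes moved with the Mup genes: 17 of 19 fell and 0 rose, with a median of -2.30. Those with the smallest p were Ugt2b38, a glucuronosyltransferase (-3.24), Gstp1, a glutathione transferase (-5.70), and Selenbp2 (-3.66). With hepatocyte identity scaling 3 fell and 1 rose, where 2.09% of all genes fell and 60.5% rose. Female-biased genes, which are low in the male liver, gave 4 that fell and 1 that rose among 14 tested, with a median of -0.41, a share of falls near the 29.6% of all genes. Those with the smallest p were Fmo2 (-4.06), Acot3 (-2.47) and Cyp2a4 (-5.11), and the gene that rose, Cyp3a44 (1.71), was chosen after its values were seen. Cyp2a4 was at 2.28, 3.64 and 4.19 CPM in miR-206 libraries 1, 2 and 3, against 1.85, 174 and 175 CPM in controls 1, 2 and 3, so control 1 was like the miR-206 libraries in this gene.

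Among 10 other lipocalin genes 7 fell and 0 rose, where 29.6% of all genes fell. The list median was -2.0, and the genes with the smallest p were Lcn2, an iron-siderophore binder (-3.80), Ptgds (-2.11) and the acute phase protein Orm1 (-2.13). Of 22 abundant plasma protein genes 11 fell and 0 rose, with a median of -1.73. The smallest p were those of the apolipoproteins Apoc1 (-3.40), Apoc3 (-3.19) and Apoa2 (-2.68). With hepatocyte identity scaling 10 plasma protein genes rose and 2 fell, where 60.5% of all genes rose and 2.09% fell. Of the hepatocyte identity genes 14 of 15 fell, with a median of -3.85, and the smallest p were those of Tat (-4.53), Hnf4a and Cps1 (-5.29).

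Markers of other liver cells moved as well, beside the Mup values, where 29.6% of all genes fell and 25.8% rose. Of 10 Kupffer cell genes all fell, with a summed level of 43.5 to 55.8 CPM in the miR-206 libraries and 345 to 1558 CPM in the controls. Of 8 sinusoidal endothelial genes 8 fell (115 to 125 CPM in miR-206 libraries, 468 to 518 CPM in controls). Of 6 stellate cell genes 3 fell (71.2 to 88.0 CPM in miR-206 libraries, 174 to 529 CPM in controls), and of 5 cholangiocyte genes 4 fell (35.1 to 94.6 CPM in miR-206 libraries, 848 to 3027 CPM in controls). Of 5 lymphocyte genes 3 rose and 2 fell, at 25.6 to 38.8 CPM in miR-206 libraries and 25.1 to 30.5 CPM in controls. Of 2 neutrophil genes 2 fell, at 2.88 to 4.55 CPM in miR-206 libraries and 5.02 to 22.7 CPM in controls, and of 5 red cell genes 1 fell, at 16.8 to 45.0 CPM in miR-206 libraries and 38.1 to 159 CPM in controls. No marker was at 0 in all miR-206 libraries. The part of these cells in the Mup values was not tested.

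The genes most like the mean of the 8 Mup genes, by the correlation of log2 CPM over the 6 libraries among 11387 protein-coding genes of at least 5 CPM on average, were Rai1, Cst3, Ergic3 and Hspa1b (r = 0.999 each) and S100a10 (r = 0.998). The libraries fall into 2 groups that share a difference in depth and composition, so many genes follow such a pattern. Cst3, a secreted protease inhibitor, was at 35.4 ± 18.0 CPM in the miR-206 libraries and 441 ± 104 CPM in the controls (SD, n = 3).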

How the data were processed

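RNA of 6 libraries was counted per gene by the authors, and the deposited table holds raw counts as whole numbers, 1 column per sample. Per the labels' protocols, RNA was isolated with a micro-scale kit and libraries were made with a SMARTER mRNA-Seq kit, at ultra-low input per the design text. The submitters' processing notes name GRCm38 and mm10. Which aligner, counter and annotation were used, and whether strand was, is not given in the sources used here; how reads of close copies were assigned is therefore unknown.

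Of 49315 genes, 49056 were matched by identifier to GENCODE M21. The counts were tested with edgeR 4.0.16 (filterByExpr with a minimum count of 10, TMM, quasi-likelihood, robust), with group as the single term and Benjamini-Hochberg adjustment over 24382 genes. SE is the log2 fold change divided by the root of F. A count of 0 allows up to 3 counts, which is 0.311 to 0.546 CPM per library. Background per exonic kb came from 1915 olfactory and vomeronasal receptor genes. Shares of the summed Mup counts were compared by exact permutation of libraries, and ratios to Alb and to Mup3 have no test. Alternatives were other scalings, DESeq2 1.42.0, no filter, background subtraction, a replicate block and leaving out each library; the fits with hepatocyte identity scaling after background subtraction, and without control 1 and miR-206 library 2 together, were chosen after seeing the data. The edgeR step was run on simulated counts with few changed genes. That run does not cover the scaling of a table in which 55.4% of genes were called.

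The members and gene lists were chosen with earlier results of these data known. The text names the 8 genes, the other Mup genes with at least 10 counts that were tested, the members of the growth hormone and regulator lists, of every other list of liver genes the 3 members with the smallest p, and the 5 genes most alike by Pearson's r. Promoters and the miRNA are RefSeq's (GRCm38.p6). Promoters of Mup1 and Mup20 were not used here. Some genes of the regulator list are counted but not reported here by name.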

Additional observations from a re-analysis of the deposited data

How the results depend on the processing

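The number of Mup genes past the test, 8 as reported, was 4 with upper-quartile factors, 3 with library size alone, 2 with hepatocyte identity scaling, 4 with the background subtracted and 2 with both, and 4 to 8 when a library was left out (4 without miR-206 library 3, 5 without miR-206 library 2, control 2 or control 3). The log2 fold change turned positive for Mup2 (1.32 with hepatocyte identity scaling, 0.91 with background subtraction as well) and Mup10 (0.68 and 0.62), none of which passed. Against the summed plasma protein counts the log2 ratio of the family was -1.20 and against nuclear counts -1.15, where it was -0.49 against Alb, and it ran from -0.61 to -0.30 when a library was left out, the last without control 1. The difference in the share of Mup3 ran from 19.7 to 23.1 points and that of Mup20 from -24.9 to -23.6. The share of Mup1 turned to -0.00839 points with background subtracted. Over all genes 13502 were called, 8840 with background subtraction and hepatocyte identity scaling together, and 8472 to 19532 when a library was left out, the highest without control 1. Of all list genes 93 passed, 56 with library size alone, 53 with hepatocyte identity scaling, 60 with background subtracted, 51 with both and 62 to 113 when a library was left out. Per kb of the longest transcript, controls had 15.8 for Mup1, 7.08 for Mup2 and 72.1 CPM for Mup10. The split of rises and falls over all genes, 6289 and 7213 as reported, was 11642 and 3774 with library size alone, 10629 and 4812 with upper-quartile factors and 14749 and 509 with hepatocyte identity scaling. Apart from what each alternative changes by construction, the cause was not tested. With the replicate block 7 of the 8 genes passed and Mup3 was lost. Same-numbered libraries correlated in their deviations by 0.0071, 0.0185 and -0.0060. These values cannot decide whether a number marks a mouse, since libraries within a group also differ in depth and mitochondrial share. At the depth of the miR-206 libraries Mup1 and Mup2 rest on 12 to 28 counts each.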
